A study of Mus musculus with 2 samples.

Results

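Cells that carried azurophil granule transcripts were picked out of spleen suspensions of 1 wild-type and 1 SCD mouse. A cell counted when its unique molecular identifiers (UMIs, 1 per captured transcript) of Elane, Mpo, Prtn3 and Ctsg summed to at least 10 and to at least 0.5% of all its UMIs. It also had to hold at least 500 genes, less than 15% mitochondrial and less than 30% ribosomal protein UMIs. The rule found 450 of 21573 cells that passed those filters, 31 of 9718 in the wild-type library and 419 of 11855 in the SCD library. Since the members were selected on the UMIs of these 4 genes, the levels of the 4 genes are given as a description.

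Each library came from the spleen of 1 mouse aged 12 to 16 weeks without treatment, after bead-based negative enrichment for dendritic cells (DCs), so every share is a share of the enriched suspension. The wild-type mouse served as control and does not sickle. It carried both copies of Hbatm1Paz, 1 copy of Hbbtm1Tow and 1 copy of the human globin transgene Tg(HBA-HBBs)41Paz. The SCD mouse, which sickles, carried both copies of each of these 3 alleles, so both mice were homozygous for the Hba allele and both carried the transgene. The genetic background was mixed. With 1 library per genotype no difference between genotypes was tested, and every interval below covers counting error only.

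The libraries held 10845 and 13447 barcodes with 97880318 and 189688217 UMIs. Passing cells had a median of 5156.5 UMIs in the wild-type and 9065 in the SCD library. Hbb-bs, an adult beta globin gene of the mouse, stood at 1765 CPM (UMIs per 1e+06 UMIs of the cells summed) in the wild-type and at 16.3 in the SCD library. Hba-a1 stood at 926 and 1289 CPM although both mice are labelled homozygous for the Hba allele. The libraries shared 88 barcodes, 0 of them between members, and 1 SCD member had the barcode of a kept wild-type cell.

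Azurophil granules are the first granules that developing neutrophils fill, at the promyelocyte stage, and they store serine proteases and myeloperoxidase in a proteoglycan matrix. Genes of specific and gelatinase granules are switched on afterwards while the azurophil genes are switched off, so granule transcripts mark successive stages. Early monocyte precursors also make some of the azurophil proteins. In mice with haemolytic anaemia the spleen is a site of blood cell formation outside the bone marrow.

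Elane (neutrophil elastase) and Prtn3 (proteinase 3) encode serine proteases and lie next to each other on chromosome 10, at chr10:79886247-79888215 and chr10:79874476-79883174 on the plus strand of GRCm38, 3073 bases apart. The next gene, Cfd, encodes complement factor D, another serine protease, and had 0 CPM in wild-type and 0.317 CPM in SCD members. Mpo, which encodes myeloperoxidase, lies at chr11:87793581-87804413 on the plus strand. Ctsg, which encodes cathepsin G, lies at chr14:56099881-56102574 on the minus strand. Its nearest neighbours, Mcpt8 (mast cell protease 8, a basophil protease) and Gzme (granzyme E), stood at 37.9 and 9.97 CPM and at 0 and 0 CPM in wild-type and SCD members. Of the 36 wild-type Mcpt8 UMIs 35 lay in 1 cell. Ms4a3, a membrane protein of granulocyte and monocyte precursors that the rule did not use, lies at chr19:11629496-11640851 on the minus strand.

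The start regions of the 4 selecting genes are shown because the transcripts appear together in the same cells. Sequences are RefSeq windows on GRCm38.p6, from 250 bases before to 50 bases after the annotated start, 5′ to 3′ on the strand of the gene. The RefSeq starts of Elane, Mpo and Prtn3 lie inside the gene intervals given above. Capitals mark matches on either strand to GAGGAA (a core bound by PU.1, the myeloid factor encoded by Spi1), AACNG (the MYB core) or TTGCNNAA (a C/EBP core).
Elane, chr10:79886062-79886361, plus strand: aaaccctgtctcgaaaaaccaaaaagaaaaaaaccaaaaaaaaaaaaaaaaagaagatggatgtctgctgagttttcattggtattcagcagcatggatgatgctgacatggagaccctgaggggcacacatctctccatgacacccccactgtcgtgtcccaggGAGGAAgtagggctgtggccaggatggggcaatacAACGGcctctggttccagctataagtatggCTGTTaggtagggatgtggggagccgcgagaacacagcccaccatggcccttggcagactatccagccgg
Prtn3, chr10:79879417-79879716, plus strand: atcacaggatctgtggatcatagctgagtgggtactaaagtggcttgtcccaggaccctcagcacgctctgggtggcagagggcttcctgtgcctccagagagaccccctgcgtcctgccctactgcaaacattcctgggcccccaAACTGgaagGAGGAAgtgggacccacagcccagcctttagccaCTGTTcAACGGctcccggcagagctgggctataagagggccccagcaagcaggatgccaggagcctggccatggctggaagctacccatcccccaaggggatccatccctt
Mpo, chr11:87793534-87793833, plus strand: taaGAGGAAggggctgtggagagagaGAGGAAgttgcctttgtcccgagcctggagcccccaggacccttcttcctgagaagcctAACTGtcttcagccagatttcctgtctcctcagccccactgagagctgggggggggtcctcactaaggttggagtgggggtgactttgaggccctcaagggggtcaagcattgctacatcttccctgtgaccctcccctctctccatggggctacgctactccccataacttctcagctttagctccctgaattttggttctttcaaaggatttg
Ctsg, chr14:56102525-56102824, minus strand: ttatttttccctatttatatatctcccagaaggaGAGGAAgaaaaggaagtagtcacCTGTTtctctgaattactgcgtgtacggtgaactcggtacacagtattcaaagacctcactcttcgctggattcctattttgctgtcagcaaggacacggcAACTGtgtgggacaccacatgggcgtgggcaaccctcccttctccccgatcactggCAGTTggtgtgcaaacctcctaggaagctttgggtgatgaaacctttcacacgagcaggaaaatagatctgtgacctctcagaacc
The window of Ms4a3, at chr19:11640802-11641101, held 1 GAGGAA, 1 TTGCNNAA directly after it and no AACNG. No match overlapped another in the 4 windows shown. In Elane the GAGGAA began 85 bases before the start. All 5 windows held at least 1 GAGGAA, a sequence found in 28.3% of 32851 windows of this length, and the 4 selecting genes also held 1 to 3 AACNG, found in 80.3%. Both together occurred in 22.9% of windows. TTGCNNAA, present in 10.8% of windows, was found in none of the 4. These are letter matches, and binding was not measured.

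The label given to these cells, promyelocyte-like, follows from the granule transcripts that the rule selected, so those transcripts do not test it. Ms4a3, outside the rule, is a gene of granulocyte and monocyte precursors and does not single out promyelocytes. Other genes followed the label only in part. Most members held more UMIs of monocyte precursor genes than of neutrophil precursor genes, and fewer held the reverse. The members were divided by comparing the UMIs of Irf8, Csf1r, Ly86, Ccr2, F13a1 and Klf4 with those of Cebpe, Gfi1, Fcnb, Cd177 and Hp, a division chosen after the values were seen, so the 11 genes are no findings. Cells with more UMIs of the first list are called the Irf8 side and cells with more of the second the Cebpe side.

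**Figure D1:**
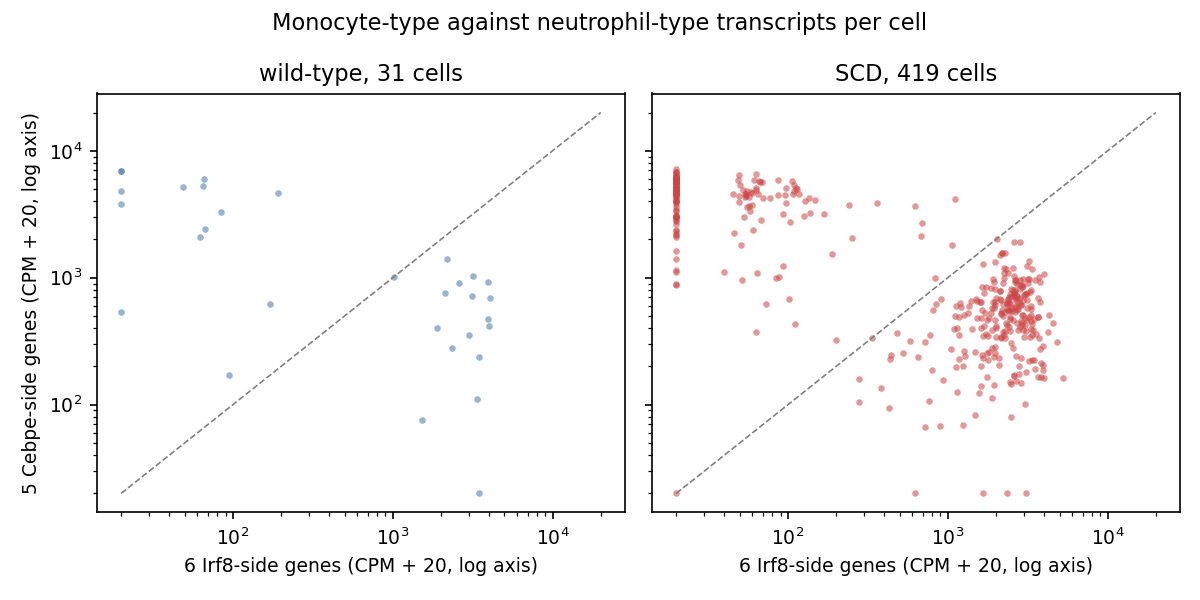
Each point is 1 cell with azurophil granule transcripts, placed by its summed CPM of the 6 Irf8-side genes (horizontal) and of the 5 Cebpe-side genes (vertical), both plus 20 on log axes, in the wild-type library (31 cells, left) and the SCD library (419 cells, right). The dashed line marks equal levels: 16 wild-type and 265 SCD cells lie below it, and 14 and 151 above it.

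The Irf8 side held 16 wild-type and 265 SCD cells, the Cebpe side 14 and 151, and 1 and 3 cells were tied. The division compares amounts, as 1 of 16 and 4 of 265 Irf8-side cells held no UMI of the second list and 5 of 14 and 76 of 151 Cebpe-side cells none of the first. Near the dividing line, with the lists within 2-fold of each other, lay 1 and 23 Irf8-side cells and 2 and 3 Cebpe-side cells. The lists differed by more than 5-fold in 143 of 151 SCD cells on the Cebpe side and in 109 of 265 on the Irf8 side. Most Cebpe-side cells thus lay far from the dividing line, and Irf8-side cells lay on average closer to it.

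Irf8 encodes the transcription factor that directs precursors to monocytes and DCs. It was detected in 16 of 16 wild-type and 263 of 265 SCD cells of the Irf8 side, and in 0 of 14 and 17 of 151 cells of the Cebpe side. Cebpe encodes the factor that drives the later granule programme of neutrophils. It was detected in 12 of 14 and 149 of 151 Cebpe-side cells and in 7 of 16 and 89 of 265 Irf8-side cells.

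Genes outside the dividing lists also separated the sides in both libraries, given here as a description since the cells had been divided by correlated genes. The Irf8 side was higher in S100a10, which encodes an annexin partner (1278 CPM on the Irf8 side against 12.4 on the Cebpe side in wild-type, 939 against 35.9 in SCD). It was also higher in Lgals1, which encodes galectin 1 (1773 against 52.1 CPM in wild-type, 1991 against 137 in SCD). Ms4a6c, Itga1 (integrin α1), Prdx4 (a peroxiredoxin of the endoplasmic reticulum) and Ahnak followed the same order in both libraries. Ctsc, which encodes the protease that activates the azurophil serine proteases by trimming them, stood at 247 against 17.4 CPM in wild-type and at 367 against 21.7 in SCD.

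The Cebpe side was higher in Vcam1, the adhesion molecule, at 243 CPM against 0 on the Irf8 side in wild-type and 158 against 1.40 in SCD. Cd63, a granule membrane tetraspanin, stood at 967 against 40.2 CPM in wild-type and at 752 against 25.5 in SCD. Pglyrp1, a peptidoglycan-binding granule protein, stood at 1895 against 123 CPM in wild-type and at 1998 against 79.9 in SCD. Prss57, a further serine protease of azurophil granules, stood at 295 against 8.04 and at 287 against 29.7 CPM. Camp (cathelicidin) and S100a8 and S100a9 (the subunits of calprotectin) were also higher on the Cebpe side.

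Transcripts that are markers of haematopoietic progenitors were divided between the sides. Cd34, a surface sialomucin of progenitors, was detected in 9 of 16 wild-type and 159 of 265 SCD cells of the Irf8 side and in 1 of 14 and 7 of 151 of the Cebpe side. Kit, the stem cell factor receptor, showed the opposite order, with 3 of 16 and 80 of 265 Irf8-side cells against 11 of 14 and 87 of 151 Cebpe-side cells. Irf8-side cells were the deeper ones in SCD, since 227 of 265 held more than 5000 genes against 22 of 151 on the Cebpe side. The part of depth in these detection counts was not tested.

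The 4 selecting genes were concentrated in the members. Of all Elane UMIs in passing cells, 92.5% in wild-type and 89.5% in SCD lay in members, and for Mpo 88.4% and 89.5%. The shares were 81.9% and 79.5% for Prtn3 and 80.3% and 86.7% for Ctsg. For Ms4a3, which was not used, they were 68.8% and 73.7%, and Ms4a3 was detected in 29 of 31 wild-type and 388 of 419 SCD members. All 4 selecting genes were found together in 31 of 31 and 406 of 419 members.

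Summed over members, Elane stood at 8357 CPM in wild-type and 4911 in SCD, Mpo at 4888 and 3635, and Prtn3 at 6577 and 6258. Ctsg stood at 1639 and 1629 CPM and Ms4a3 at 785 and 565. The libraries differed in the mix of the sides, so values are given by side next.

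Elane ranged per cell from 716 through a median of 2357 to 7363 CPM on the wild-type Irf8 side and from 0 through 1672 to 12483 on the SCD Irf8 side. On the Cebpe side it ranged from 125 through 12841 to 26031 CPM in wild-type and from 1337 through 10600 to 45979 in SCD. The ranges of the sides overlapped in each library, with the Cebpe-side medians above the Irf8-side medians. Elane was the highest of the 4 genes in 111 of 151 SCD cells on the Cebpe side and in 8 of 265 on the Irf8 side.

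Prtn3 had medians of 4084 and 4566 CPM on the Irf8 side and 6721 and 7860 on the Cebpe side, in wild-type and SCD. It was the highest of the 4 genes in 212 of 265 SCD Irf8-side cells and in 9 of 16 wild-type ones. Mpo had medians of 3136 and 3146 CPM on the Irf8 side and 3833 and 3533 on the Cebpe side. The medians of Mpo thus lay closer between the sides than those of Elane.

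Ctsg had medians of 1520 and 1340 CPM on the Irf8 side and 708 and 732 on the Cebpe side, but by summed UMIs it stood at 1445 and 1508 CPM on the Irf8 side and at 1597 and 1957 on the Cebpe side, so the order of the sides depends on the measure. Ms4a3 had medians of 100 and 202 CPM on the Irf8 side and 1089 and 1084 on the Cebpe side. For all 5 genes the order of the side medians was the same in both libraries.

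**Figure D2:**
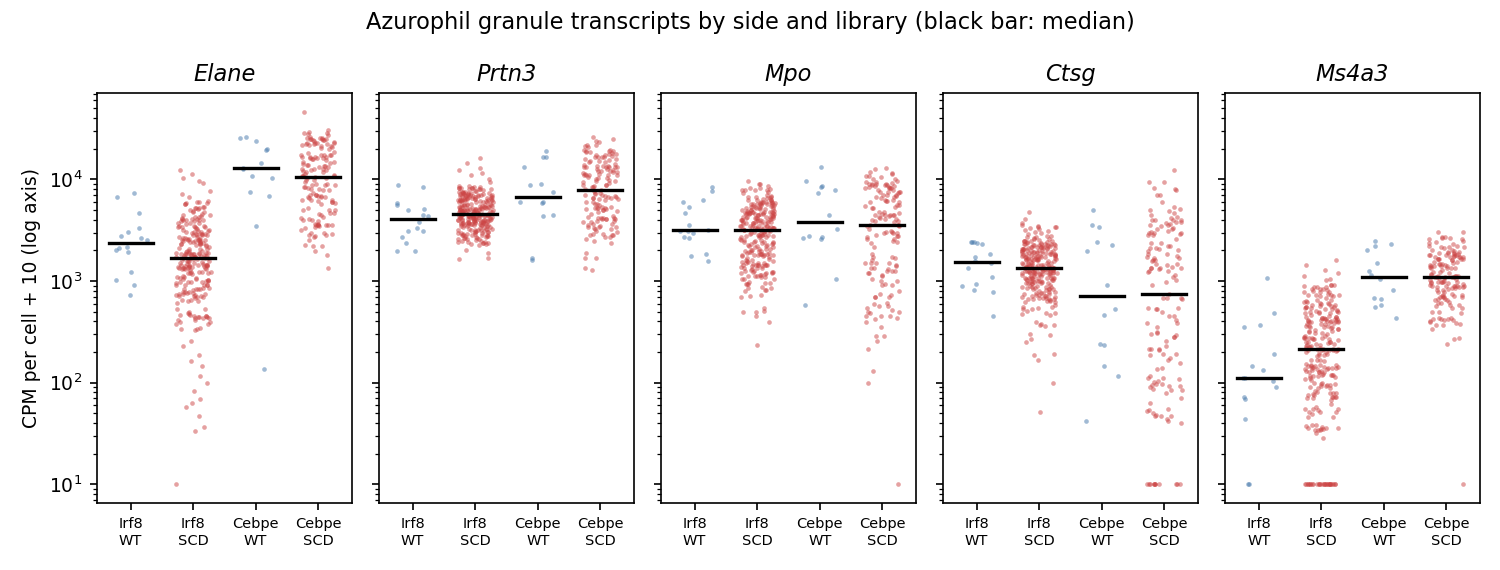
CPM per cell plus 10 (log axis) of Elane, Prtn3, Mpo, Ctsg and Ms4a3 in Irf8-side and Cebpe-side cells of the wild-type (WT, blue) and SCD (red) libraries, with 1 point per cell and a black bar at the median. Elane and Ms4a3 are higher on the Cebpe side in both libraries (Elane medians 12841 and 10600 against 2357 and 1672 CPM). The medians of Ctsg are lower there, 708 and 732 against 1520 and 1340 CPM, although its summed level is not.

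Across single cells the granule genes moved together more closely on the Cebpe side. Over the 151 SCD Cebpe-side cells, Spearman's rho was 0.88 for Elane with Prtn3, 0.82 for Elane with Mpo and 0.86 for Mpo with Ctsg. Over the 265 SCD Irf8-side cells the same pairs gave 0.64, 0.29 and 0.71. Over the 14 wild-type Cebpe-side cells they gave 0.89, 0.74 and 0.83, and over the 16 wild-type Irf8-side cells 0.47, 0.38 and 0.57. These correlations are descriptions across cells of 1 library that share depth, total UMIs as denominator and the selection on the sum of the genes.

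Granule UMIs also occurred in cells that should lack them, the background against which the members are read. Among plasmacytoid DCs, taken as kept non-member cells with at least 10 UMIs of Siglech (the lectin that marks them), a UMI of Elane occurred in 0.779% of 770 wild-type and 16.9% of 585 SCD cells, at median depths of 11244 and 9266 UMIs. For Ms4a3 the shares were 0.519% and 4.96%. The 4 genes together made up at most 0.0246% of a wild-type and 0.310% of an SCD plasmacytoid DC, below the 0.5% of the rule, and 0 and 12 of them held 10 or more UMIs of the 4 genes. Members started at 0.543% in wild-type and 0.503% in SCD, with medians of 1.80% and 1.28% and highest values of 5.69% and 8.78%.

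The cut at 0.5% ran through a tail of cells. Just outside it, from 0.4% to 0.5%, lay 3 wild-type and 44 SCD cells with medians of 0.430% and 0.438%. Just inside, from 0.5% to 0.6%, lay 2 and 30 cells with medians of 0.553% and 0.560%. The minimum of 10 UMIs removed 0 cells.

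Cells with azurophil granule transcripts were a larger share of the SCD suspension. They made up 0.319% (95% Clopper-Pearson interval 0.217 to 0.452) of passing wild-type cells and 3.53% (3.21 to 3.88) of passing SCD cells, a ratio of 11.1 (95% interval 7.70 to 15.9). The Irf8 side made up 0.165% and 2.24%, a ratio of 13.6 (8.20 to 22.5), and the Cebpe side 0.144% and 1.27%, a ratio of 8.84 (5.12 to 15.3). Both sides were thus larger shares of the SCD suspension, and the intervals of their ratios overlapped.

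The most similar other cells were also larger shares of the SCD suspension, by smaller ratios. Other Ly6c2 monocytes (kept non-members with at least 5 UMIs of Ly6c2 and 5 of F13a1, Ccr2 and Ly86 together, and under 1% each of MHC class II and of S100a8 and S100a9 UMIs) numbered 459 and 1401, a ratio of 2.50 (2.26 to 2.77). Later dividing precursors, non-members with specific granule and cell cycle transcripts, numbered 53 and 477, a ratio of 7.38 (5.56 to 9.79). The SCD cells of that group also carried erythroid transcripts (Car1 471 CPM against 12.2 in wild-type, Car2 314 against 0.764, Klf1 49.1 against 0.764), and their part in the ratio was not tested. Plasmacytoid DCs had a ratio of 0.623 (0.561 to 0.691). The interval for all members thus lay above that of the monocytes and overlapped that of the later precursors, as counts of cells from 1 mouse each.

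**Figure D3:**
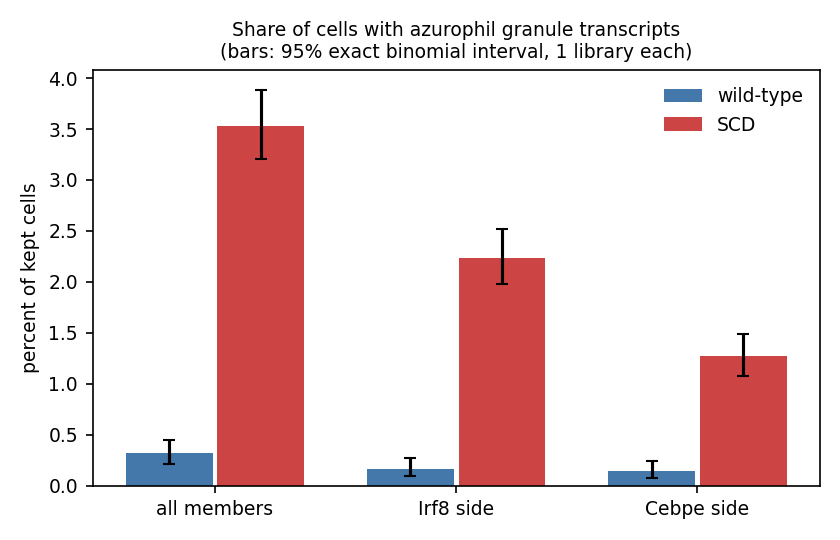
Bars give the percent of kept cells that carried azurophil granule transcripts, for all members and for the Irf8 and Cebpe sides, in the wild-type (blue) and SCD (red) libraries, with 95% exact binomial intervals as error bars. All members make up 0.319% of kept cells in wild-type and 3.53% in SCD, and both sides lie higher in the SCD library.

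The cells were large by their RNA content. Members had a median of 32128 UMIs and 5239 genes in wild-type and 35448 UMIs and 5429 genes in SCD, against 5156.5 and 9065 UMIs over all kept cells. More than 5000 genes, the upper limit that the study set for a cell, were found in 18 of 31 wild-type (58.1%) and 249 of 419 SCD members (59.4%). A doublet caller marked 1 of 31 and 3 of 419 members, against 4.13% and 3.05% of all kept cells. With members above 5000 genes left out, 13 wild-type and 170 SCD cells remained.

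Apart from the selecting genes and Ms4a3, 14 genes led the members over all other passing cells in both libraries, given as a description because the members were selected. Nkg7, which encodes a granule membrane protein known from cytotoxic cells, stood at 421 CPM in wild-type members against 6.83 in other cells and at 270 against 12.6 in SCD. Cst7, a cathepsin inhibitor of granules, stood at 179 against 2.97 and at 150 against 7.07 CPM. Prss57 stood at 140 against 4.48 and at 99.8 against 7.15 CPM. The list went on with Gstm1 (a glutathione transferase), Igfbp4, Klrb1f, Tfec, Gria3, Rgcc, Gatm, Fcnb (ficolin B), Ramp1, Alas1 and Sdf2l1. Alas1, the first enzyme of heme synthesis outside the erythroid line, stood at 165 against 37.3 CPM in wild-type and at 167 against 43.9 in SCD, and myeloperoxidase carries heme. Sdf2l1, a chaperone component of the endoplasmic reticulum, stood at 313 against 88.7 and at 302 against 75.9 CPM.

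Against other Ly6c2 monocytes, which do not meet the granule rule, Irf8-side cells were higher in several genes of precursors, named after their values were seen. Cd34 stood at 56.3 CPM against 9.11 in wild-type and at 63.2 against 5.56 in SCD. Myb, which encodes a transcription factor of dividing precursors, stood at 137 against 30.04 and at 161 against 33.6 CPM, and the cell cycle kinase gene Cdk6 at 181 against 42.7 and at 249 against 49.6 CPM. The granule genes Ms4a3, Nkg7 and Cst7 led this list too.

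Genes in which the other Ly6c2 monocytes were higher than the Irf8 side were also named after their values were seen. Vcan (versican, a matrix proteoglycan) stood at 193 CPM against 2.01 on the Irf8 side in wild-type and at 223 against 9.97 in SCD. The chemokine gene Ccl6 stood at 1139 against 52.3 and at 576 against 38.5 CPM. Apoe (apolipoprotein E) stood at 1555 against 10.0 CPM in wild-type and at 294 against 12.7 in SCD, so it was the gene of these whose level in the monocytes differed most between the libraries. Slfn5, Clec4a3 and Ifi27l2a followed the same order.

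Against the later dividing precursors, which were selected on Ltf, Camp, Ngp and Lcn2, Cebpe-side cells were higher in Srgn. This gene encodes serglycin, the proteoglycan core of the azurophil matrix, and stood at 2723 CPM against 38.9 in wild-type and at 2584 against 81.5 in SCD. Ms4a3 was higher as well (1334 against 132 and 1253 against 99.8 CPM), and so were Cst7, Gstm1 and Nkg7. The later precursors were higher in St3gal5 (a sialyltransferase, 224 CPM against 0 and 186 against 16.8) and Ly6g (the surface marker of neutrophils, 361 against 0 and 338 against 44.3). Inhba, which encodes an activin subunit, stood at 212 against 14.9 and at 128 against 13.8 CPM. Srgn ranked first by the smaller of its ratios in the libraries.

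Members covered a range of granule maturity, read from Ltf (lactoferrin), Camp (cathelicidin), Ngp (neutrophilic granule protein) and Lcn2 (lipocalin 2), specific granule genes that the rule did not use. These 4 genes made up under 0.1% of UMIs in 16 of 31 wild-type and 258 of 419 SCD members, 0.1% to 1% in 5 and 37, 1% to 5% in 5 and 68, and 5% or more in 5 and 56. Cells under 1% were 67.7% of wild-type members (95% interval 48.6 to 83.3) and 70.4% of SCD members (65.8 to 74.7), a ratio of 1.04 (0.809 to 1.34). Plasmacytoid DCs, which should lack these transcripts, fell into the 4 bins with 765, 3, 0 and 2 wild-type and 405, 137, 19 and 24 SCD cells, so such background passes the 0.1% bound more often in SCD. The pooled ratio held 2 unlike sides, because the Irf8 side had 12 of 16 and 235 of 265 cells in the lowest bin. The genes that divided the sides include Fcnb, Cd177 and Hp, also specific granule genes, so this placing of the sides is a description.

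On the Cebpe side the bins from low to high held 3, 5, 2 and 4 wild-type and 22, 18, 55 and 56 SCD cells. There the share under 1% was 8 of 14 in wild-type and 40 of 151 in SCD, a ratio of 0.464 (0.274 to 0.784) and so in the opposite direction to the pooled one. The highest bin of the Irf8 side held 1 wild-type and 0 SCD cells, and the 3 wild-type cells of the bin below it were shallow, with a median of 2891 UMIs.

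The levels along these bins are a description, since the azurophil genes selected the cells and the specific granule genes set the bins. In SCD Cebpe-side cells all 4 azurophil genes were lower in the highest bin than in the lowest. Ctsg stood at 5164, 2828, 1394 and 334 CPM from the lowest to the highest bin. Mpo stood at 7783, 7072, 4366 and 1361 CPM, and Prtn3 at 14620, 14609, 9713 and 4845. Elane kept its level longest, with 17437, 18230, 13647 and 5897 CPM. Ctsg was thus lower by the second bin, in which Elane, Prtn3 and Mpo were still near their level of the first.

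The same cells differed in regulators and in growth-related genes. Cebpe increased from 253 through 379 and 569 to 698 CPM, while Myb went from 523 through 341 and 168 to 81.1 CPM. Npm1 (nucleophosmin, needed for ribosome assembly) went from 2178 through 980 and 630 to 291 CPM. Hspa5, the main chaperone of the endoplasmic reticulum, went from 1223 through 792 and 421 to 185 CPM. S100a8 went from 13163 through 47659 and 83216 to 120062 CPM, so all other genes together share fewer of the UMIs in the later bins.

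In the 14 wild-type Cebpe-side cells, with 2 to 5 cells a bin, Ctsg did not drop by the second bin as in SCD. Ctsg stood at 2389, 2188, 1762 and 219 CPM and Npm1 at 1883, 708, 680 and 256. Elane stood at 7428, 21217, 16025 and 8953 CPM, so its lowest bin, with 3 cells, lay below the next. Camp, which defines the bins, correlated across the 151 SCD cells at a Spearman's rho of -0.74 with Ctsg and -0.59 with Elane.

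**Figure D4:**
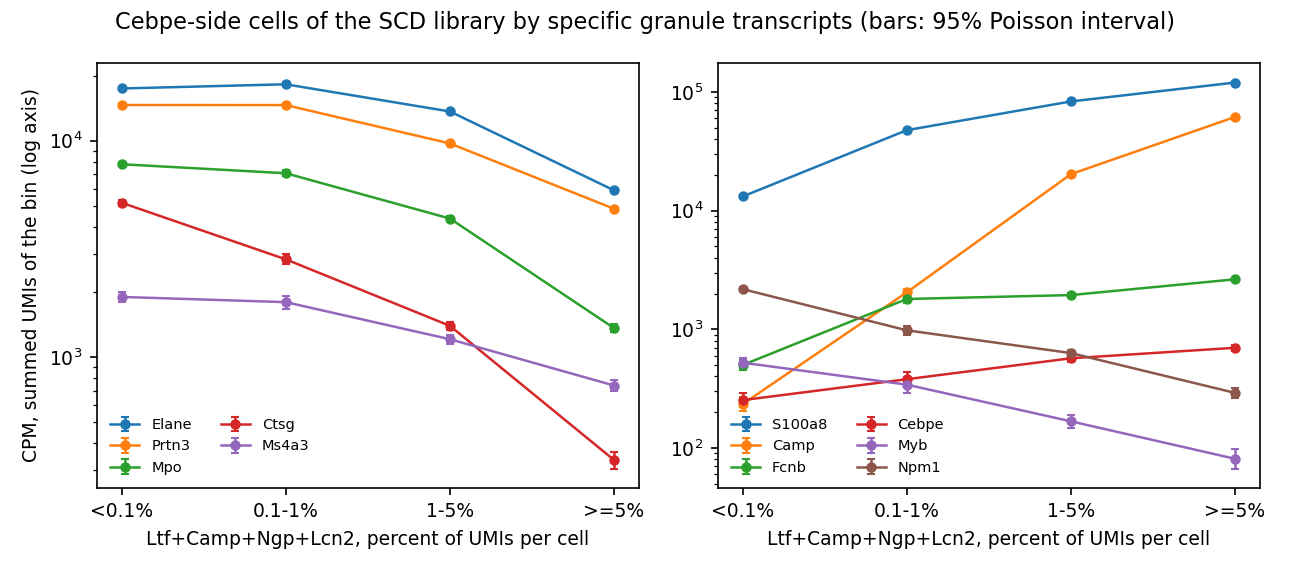
CPM of summed UMIs (log axis, with 95% Poisson intervals) in SCD Cebpe-side cells grouped by the percent of UMIs from Ltf, Camp, Ngp and Lcn2 (22, 18, 55 and 56 cells from left to right), for granule genes of the rule and Ms4a3 (left) and for other genes (right). Ctsg declines from 5164 to 334 CPM and Elane from 17437 to 5897, while S100a8 and Cebpe increase.

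Most members carried cell cycle transcripts in both libraries. After each cell was thinned to 2000 UMIs, 26 of 30 wild-type members (86.7%, 69.3 to 96.2) and 368 of 413 SCD members (89.1%, 85.7 to 91.9) held at least 5 UMIs of 34 genes of S and G2/M phase, a ratio of 1.03 (0.890 to 1.19). Thinning left out 1 and 6 shallower cells. Among other Ly6c2 monocytes the share was 14.4% and 42.3%, and among plasmacytoid DCs, which should seldom divide, 1.69% and 13.8%. After thinning, the member shares were above both in each library. Without thinning, at 10 UMIs and 0.5% of UMIs, 38.7% and 46.1% of members passed, against 11.5% and 31.0% of these monocytes. In SCD, G2/M genes made up 0.282% of member UMIs and 0.323% of monocyte UMIs, and S phase genes 0.222% and 0.148%. The distance from the monocytes in SCD thus depended on the measure.

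By side, the direction of the ratio between the libraries depended on the measure on the Cebpe side only. The 2 measures differ in their threshold as well as in thinning, and these were not separated. On the Irf8 side 75.0% of 16 wild-type and 93.5% of 261 SCD cells passed, a ratio of 1.25 (0.938 to 1.66). On the Cebpe side 13 of 13 and 82.0% of 150 passed, a ratio of 0.82. Without thinning the shares were higher in SCD on both sides, at 8 of 16 and 54.7% on the Irf8 side and 28.6% and 31.8% on the Cebpe side. Mki67 and Top2a, markers of dividing cells, stood at 412 and 361 CPM and at 420 and 467 CPM over wild-type and SCD members. Of 18 measured G2/M genes and 15 measured S phase genes none was past 2-fold, with median log2 ratios of 0.16 and 0.06. Over all genes 0.75% were past 2-fold higher and 0.784% lower, so a count of 0 lies near that background and is no result about these lists.

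Within members, 2933 genes had at least 20 UMIs and 50 CPM in a library and were compared between the libraries as log2((SCD CPM + 5)/(wild-type CPM + 5)). Of these 22 (0.75%) were at least 2-fold higher and 23 (0.784%) at least 2-fold lower in SCD, with a median log2 ratio over all genes of 0.03. Among all other kept cells 2.08% of genes were higher and 11% lower by the same rule. Smaller shares of genes were thus past 2-fold within members than among the remaining cells, which hold many cell types in differing numbers.

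Of the 10 genes with the highest ratios, several were as strongly shifted in plasmacytoid DCs or rested on 1 cell. Retnlg, a secreted protein of late neutrophils, stood at 55.7 CPM in wild-type and 461 in SCD members (log2 ratio 2.94). In plasmacytoid DCs its CPM was higher, at 196 and 1126 (2.49). Members were deeper, with medians of 32128 and 35448 UMIs against 11244 and 9266 in plasmacytoid DCs. CPM therefore does not compare background per cell, and the part of background in the Retnlg level was not tested. Mmp8, the neutrophil collagenase, had a ratio of 2.09 in members and 3.41 in plasmacytoid DCs, and Chil1 of 1.78 and 2.42. For Jchain, the joining chain of antibodies, 98.2% of the SCD UMIs came from 1 cell, and for Car1, an erythroid carbonic anhydrase, 43.1%. Ifitm1 was at 1.31 in members and at -0.91 on the Cebpe side.

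The others of the 10 were spread over many SCD cells. In wild-type members Spata7 had only 11 UMIs in 9 cells and Phb 22 UMIs in 11 cells. Mif, which encodes a cytokine made by dividing cells, stood at 335 CPM (95% Poisson interval 300 to 374) in wild-type and 785 (771 to 799) in SCD members, a log2 ratio of 1.21, with 1.03 on the Irf8 side, 0.71 on the Cebpe side and 0.53 in other kept cells. In other Ly6c2 monocytes it stood at 135 and 251 CPM. Per cell on the Irf8 side it had medians of 373 CPM in wild-type and 829 in SCD. Scd2, a fatty acid desaturase gene, had a ratio of 1.42, Phb (prohibitin) of 1.26 and Spata7 of 2.32. For Spata7 the ratio in other kept cells was 1.47, and for Scd2 and Phb 0.29 and 0.17. In plasmacytoid DCs Spata7 was at 1.37, past 2-fold, and Scd2, Mif and Phb were at 0.55, 0.40 and -0.19.

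The 10 lowest were led by genes carried by few wild-type cells. All Cpa3 UMIs of wild-type members (mast cell carboxypeptidase) lay in 1 cell, 58.6% of Il1b and 71.1% of Apoe likewise. Cd74, the MHC class II invariant chain, stood at 720 CPM in wild-type and 116 in SCD members (-2.59), with H2-Eb1 (-2.73), H2-Aa (-2.72) and H2-Ab1 (-2.34) beside it. These ratios were of similar size in all other kept cells (-2.64, -2.57, -2.65 and -2.46). Il1b (-2.72), Tbc1d4 (-3.36), Ccnd1 (-2.81) and Marcks (-2.22) were lower there too, with Tbc1d4, Ccnd1 and Marcks further below 0 than in members. Such ratios were thus also found in all other kept cells together, which hold many cell types in differing numbers. In single groups the list of DC markers was less shifted than in members, where its median was -2.59 over 5 measured genes. Its median was -0.10 over 4 measured genes in the later dividing precursors and -0.97 over 5 in other Ly6c2 monocytes. On the Irf8 side Cd74 was at 1.34 (34.2 and 94.0 CPM), although detected in 11 of 16 wild-type and 148 of 265 SCD cells, and the other 3 were under 50 CPM in both libraries. On the Cebpe side Cd74 was at -2.77. Of the 685 Cd74 UMIs of wild-type members 491 lay on the Cebpe side, 17 on the Irf8 side and the rest, 25.8%, in 1 cell that was tied. DC markers reached 0.1% of UMIs in 5 of 31 wild-type members, 4 of them on the Cebpe side, and in 15 of 419 SCD members. With members that held markers of other lineages left out, Cd74 stood at -1.61 and H2-Ab1 at -0.12. Both genes are among the DC markers by which cells were left out, so ratios nearer to equal levels follow in part from that choice. Tbc1d4 (-2.66), Ccnd1 (cyclin D1, -1.76) and Marcks (-1.72) completed the 10.

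Since 0.75% of all genes were past 2-fold higher and 0.784% lower, a count of 0 in a list as short as those below lies near that background and is no result about the list. Of 12 measured genes of other azurophil proteins none was past 2-fold and the median log2 ratio was -0.47, with -0.15 on the Irf8 side and -0.09 on the Cebpe side. Lyz2 (lysozyme) stood at 3135 CPM in wild-type and 2770 in SCD members, with log2 ratios of -0.68 on the Irf8 side and 0.69 on the Cebpe side. Srgn stood at 1729 and 1213, Serpinb1a (an inhibitor of the granule proteases) at 591 and 465, and Cd63 at 449 and 223. Of 9 specific granule genes Mmp8 was higher and Fcnb lower (1072 and 529 CPM), with a median of -0.18. Fcnb was past 2-fold on neither side (-0.88 and -0.39). Fcnb, Cd177 and Hp of this list helped set the sides, so its values by side are a description. On the Irf8 side the median of the list was -1.06, with 5 of 9 genes lower, a sum that rests on few wild-type cells, since 1 of 16 held 838 of the 915 Camp UMIs. Per cell the specific granule genes there had medians of 0.0913% of UMIs in wild-type and 0.110% in SCD, the opposite order. On the Cebpe side the list median was 0.43 with Ltf and Mmp8 higher. Over all genes 1.05% of 3226 were lower on the Irf8 side and 0.595% of 2521 higher on the Cebpe side. In plasmacytoid DCs Camp stood at 381 and 4217 CPM, against 1839 and 660 summed over the Irf8 side, where it was detected in 11 of 16 and 262 of 265 cells with medians of 28.1 and 176 CPM, and the part of such background in these lists was not tested.

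Over all members S100a9 stood at 30316 CPM in wild-type and 24610 in SCD and S100a8 at 29295 and 23961, but on the Cebpe side the order was reversed, with S100a8 at 60384 and 77584 CPM and S100a9 at 62574 and 78612. Of 6 measured S100 genes none was past 2-fold over members, and on the Cebpe side S100a6 was higher (102 and 316 CPM) and S100a4 lower (71.9 and 6.76). Over all genes of the Cebpe side 0.595% of 2521 were higher and 2.06% lower. The S100 list had a median of -0.21 over members, -0.47 on the Irf8 side and 0.33 on the Cebpe side. The Irf8-side value is one of sums, and per cell S100a8 and S100a9 together had medians of 0.0382% of UMIs in wild-type and 0.196% in SCD. Plasmacytoid DCs had medians of 0.0506% and 0.329% of UMIs for these genes, above the Irf8-side medians in both libraries. They were shallower, with median depths of 11244 and 9266 UMIs against 34910.5 and 40613 on the Irf8 side. A percent of UMIs therefore does not compare background per cell, and the part of background in these levels was not tested. Late neutrophil genes had 1 of 7 higher (Retnlg) and 1 lower (Il1b), with a median of -0.46. Slpi, an inhibitor of elastase, stood at 661 and 481 CPM over members, with log2 ratios of -0.88 on the Irf8 side and 0.30 on the Cebpe side. The list medians were -0.44 and 0.30 by side, and on the Cebpe side Mmp9 and Retnlg were past 2-fold higher.

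Of 10 measured transcription factors of granulocyte and monocyte precursors none was past 2-fold (median -0.20). Irf8 stood at 419 CPM in wild-type and 431 in SCD members, Spi1, which encodes PU.1, at 281 and 293, Cebpb at 350 and 345, and Myb at 208 and 179. Cebpe stood at 219 and 155 CPM over all members and at a log2 ratio of 0.22 within the Cebpe side. By side, Irf8 stood at 770 and 587 CPM on the Irf8 side. Of 10 monocyte genes, Irf8 included, none was past 2-fold over all members (median -0.13), with Ly6c2 at 2838 and 2286 CPM, F13a1 at 504 and 460 and Ccr2, the chemokine receptor of monocytes, at 207 and 276. Irf8, Csf1r, Ly86, Ccr2, F13a1 and Klf4 of the monocyte genes helped set the sides, so the values by side are a description. On the Irf8 side the median was -0.44, with Mpeg1 (perforin 2) past 2-fold lower (281 and 134 CPM) and Ccr2 at 368 and 372 CPM. On the Cebpe side it was -1.76 over 3 measured genes, with Ctss and S100a4 lower. Over all genes 1.05% of 3226 were lower on the Irf8 side and 2.06% of 2521 on the Cebpe side.

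Ribosome assembly genes were the list with the highest median among those with more than 2 measured genes. All 9 measured genes were above 0, 1 of them (Nolc1, a nucleolar protein) past 2-fold, and the median was 0.73. Npm1 stood at 1023 CPM in wild-type and 1884 in SCD members, Ncl (nucleolin) at 528 and 952, Nhp2 (a component of small nucleolar particles) at 150 and 263 and Fbl (fibrillarin) at 205 and 231. By side, the median was 0.91 on the Irf8 side, with Nolc1 and Nhp2 past 2-fold (1.05% of all genes were higher there). On the Cebpe side it was 0.03 over 7 genes, and the difference between the sides was not tested.

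Per cell, Npm1 on the Irf8 side ranged from 0 through a median of 1111 to 2127 CPM in the 16 wild-type cells and from 0 through 1916 to 5104 in the 265 SCD cells, so the ranges overlapped. The median of the list was 0.57 in all other kept cells and 0.46 in other Ly6c2 monocytes, so the higher level in SCD was also found outside the members. In the later dividing precursors it was 2.30 with 8 of 8 genes past 2-fold, in a group whose SCD cells also carried erythroid markers. Over all genes of that group 9.06% of 2483 were past 2-fold higher and 0.0805% lower. The list median was 0.15 in members with at most 5000 genes, a limit that 12 of 16 wild-type and 227 of 265 SCD Irf8-side cells exceeded. Without the mitochondrial and ribosomal limits it was 0.53 in members.

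Of 16 measured genes of the endoplasmic reticulum none was past 2-fold (median 0.13), with Calr (calreticulin) at 1036 CPM in wild-type and 1264 in SCD, Sec61b (a subunit of the translocation channel) at 1101 and 1144, Hsp90b1 at 789 and 894 and Hspa5 at 689 and 737. Of 6 NADPH oxidase genes, whose product makes superoxide in phagocytes, none was past 2-fold (median -0.26), with Cyba at 1067 and 901 CPM and Cybb at 373 and 339. Of 10 measured targets of the oxidative stress factor NRF2 none was past 2-fold (median 0.00), with Txn1 (thioredoxin) at 864 and 844 CPM and Prdx1 at 428 and 528.

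Of 4 measured heme and iron handling genes 1 was lower, the iron exporter gene Slc40a1 (53.6 and 22.5 CPM), which on the Cebpe side was not past 2-fold (91.8 and 68.1 CPM) and on the Irf8 side was under 50 CPM, while the ferritin genes Ftl1 and Fth1 stood at 1952 and 2223 and at 1235 and 1457 CPM. Both measured heme synthesis genes were above 0 and neither was past 2-fold. Of 6 measured interferon-responsive genes none was past 2-fold (median -0.22), with Ifitm3 at 578 and 626 CPM over members, 955 and 800 on the Irf8 side and 52.1 and 157 on the Cebpe side, where it was past 2-fold. The list medians were -0.47 and 0.51 by side, the second over 2 genes. Of 8 receptor and homing genes none was past 2-fold (median -0.35), and Cxcr4, the receptor that holds precursors in the marrow, stood at 172 and 129 CPM. Of 3 measured stress genes none was past 2-fold, with Hsp90aa1 at 812 and 1162 CPM. The other genes of these lists past 2-fold were Csf3r and Fos on the Irf8 side and Ireb2 and Junb on the Cebpe side. All were lower in SCD, as were 1.05% of 3226 genes on the Irf8 side and 2.06% of 2521 on the Cebpe side.

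**Figure D5:**
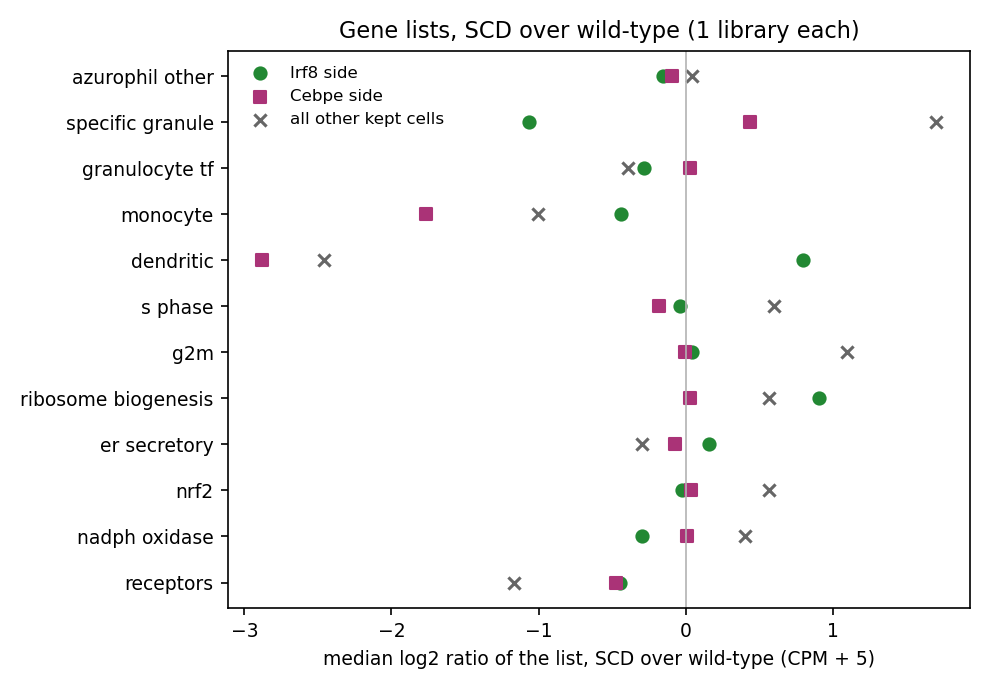
Median log2 ratio (SCD over wild-type, CPM plus 5) of 12 gene lists in Irf8-side members (green circles), Cebpe-side members (purple squares) and all other kept cells (grey crosses), from 1 library each. Ribosome biogenesis lies at 0.91 on the Irf8 side and 0.03 on the Cebpe side. The dendritic list lies at 0.79 (2 measured genes) and -2.88 (4 measured genes).

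Markers of other lineages were at or near 0 in most members. Erythroid and megakaryocyte markers reached 0.1% of UMIs in 0 of 31 wild-type and 7 of 419 SCD members, B cell markers in 0 and 3, basophil, eosinophil and mast cell markers in 1 and 2, and macrophage markers in 1 and 0. The list of T and NK cells was carried by Nkg7, with Cd3e, Cd3g, Trbc2, Ncr1 and Klrb1c at 0 in wild-type members. Pf4, a platelet factor of megakaryocytes, was at 0 there too.

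Cells that met the granule rule but not the mitochondrial or ribosomal limit numbered 11 in wild-type and 153 in SCD, and were not members. They were 26.2% and 26.7% of all cells that met the granule rule, and 8 and 126 of them were over the ribosomal limit. Their levels of early genes were high, with Ctsg at 3385 and 2598 CPM against 1639 and 1629 in members and Npm1 at 2139 and 2530 against 1023 and 1884. The mitochondrial and ribosomal limits together thus left out similar shares of such cells in the libraries.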

How the data were processed

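Single cells of 2 spleens, 1 per genotype, were profiled by 3′-end droplet sequencing. The authors deposited filtered matrices of raw UMI counts per gene and cell, made with Cell Ranger 4.0.0 on GRCm38.p6 per the labels; those counts were used as deposited. Depth per library and per cell is given with the samples. Cells were kept at 500 or more genes, under 15% mitochondrial and under 30% ribosomal protein UMIs, with no upper limit. Members, gene lists and comparisons were chosen with earlier results of these data known.

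Shares carry 95% Clopper-Pearson intervals, their ratios log-scale intervals and sums of UMIs exact Poisson intervals, all for counting error only. Gene levels are CPM of summed UMIs, and log2 ratios use a pseudocount of 5 CPM on genes with at least 20 UMIs and 50 CPM in a library; 2-fold was the fixed size for a call. Under the alternatives a named gene keeps a ratio even where it falls below that minimum. No count model was fitted, since each group held 1 sample. Named genes were the 4 of the rule and Ms4a3, the 15 that led the members over other cells in both libraries, the 10 highest and 10 lowest log2 ratios (without sex-linked, globin, antigen receptor, mitochondrial and ribosomal protein genes), and from each list the highest measured genes and those past 2-fold, of which only some are printed. Ms4a6c and other genes that separated the sides or neighbouring cells were named after their values were seen. Doublets were called with Scrublet in scanpy 1.11.5 and kept; leaving them out was 1 of the alternatives. Scripts ran in Python 3.11.15 with numpy 2.4.6 and scipy 1.17.1 and were tested on simulated data.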

Additional observations from a re-analysis of the deposited data

Results flagged for a closer look

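Cells outside the comparisons carried the same signal. In the SCD library, cells that met the 4-gene rule but were over the mitochondrial or ribosomal limit made up 1.19% of cells with at least 500 genes (95% Clopper-Pearson interval 1.01 to 1.39), against 0.106% (0.0531 to 0.190) in the wild-type library. They were picked out because their share among cells outside the members was above that in the control library. By the division used for the members, 102 of the 153 SCD cells and 7 of the 11 wild-type cells lay on the Irf8 side, and 49 and 4 on the Cebpe side. Their median ribosomal share was 31.4% and 31.2%.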

How the results depend on the processing

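No paired analysis was possible because there was 1 sample per group. The ratio of the shares of cells with azurophil granule transcripts kept its direction in 18 of 18 alternatives and lay between 7.80 and 13.6. The ratio of dividing cells was 1.19 unthinned, at 10 UMIs and 0.5% of UMIs, and 1.30 thinned to 1000 UMIs. In divisions chosen after seeing the data it was 1.25 on the Irf8 side and 0.82 on the Cebpe side. On the Cebpe side the unthinned shares, at their own threshold, had the opposite order (28.6% in wild-type and 31.8% in SCD). The ratio of cells low in specific granule transcripts was 0.464 on the Cebpe side. Genes past 2-fold numbered 45, against 23 with a pseudocount of 20 CPM, 172 with no minimum CPM, 12 with a minimum of 200 CPM, 68 on the Irf8 side and 25 without the mitochondrial and ribosomal limits. With no minimum CPM more genes were compared (10831), and with 200 CPM fewer (700). For the other counts the cause was not tested.

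Log2 ratios of named genes and lists changed sign as follows; several of these genes were below 50 CPM in both libraries under the alternative (on the Irf8 side Cpa3, Apoe, H2-Eb1, H2-Aa, H2-Ab1 and Ccnd1), so those are ratios of low values. With at most 5000 genes per cell, Car1 was at -0.085, Cpa3 at 0.26 and Apoe at 0.52. With the 4 genes at 1% of UMIs, Jchain was at -0.054 and Cpa3 at 0.41. On the Irf8 side Cpa3 was at 0.21, H2-Eb1 at 0.36, H2-Aa at 1.15, Cd74 at 1.34, H2-Ab1 at 1.06, Apoe at 0.23 and Ccnd1 at 1.51. The median of the dendritic list there was 0.79, over 2 measured genes. On the Cebpe side Jchain was at -0.17 and Ifitm1 at -0.91. With members that held markers of other lineages left out, Cpa3, itself one of those markers, was at 0.26, Apoe at 0.29 and Ccnd1 at 1.12. With the top cell of each gene left out, Cpa3 was at 0.20. The median of the basophil, eosinophil and mast cell list was 0.70 with the mean of per-cell CPM. Of the remaining values under alternatives, 580 stayed within the counting interval (shares), past 2-fold in the same direction (genes) or near the reported median (lists), and 122 did not.

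With 31 wild-type members, 14 of them on the Cebpe side, single cells decide ratios of rare transcripts, and only 1 mouse stands for each genotype.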
